A study of Mus musculus with 23 samples.

Results

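Retnla, Retnlg, Chil1 and Chil3 encode secreted proteins of the resistin-like and chitinase-like families, and they are described here in macrophages and monocytes taken from around a polymer implant. The members were the entries of the deposited count table whose Ensembl gene identifiers carry these 4 symbols, 4 of 47729 gene entries, and all 4 were among the 16260 genes with enough counts to be tested. The study used wildtype C57BL/6J mice of unstated age, with a poly(ethylene glycol) (PEG) hydrogel placed under the skin, and followed the foreign body response, the reaction of tissue to an implanted material. RNA was sequenced from cells of digested subcutaneous tissue and hydrogel, sorted as Cx3cr1+ Ly6C-low macrophages and Cx3cr1+ Ly6C-high monocytes. The 23 libraries formed 8 groups: each cell type from untreated control mice and from mice at days 2, 14 and 28 after implantation, with 2 control macrophage libraries and 3 libraries in every other group. The series describes the libraries of a group as biological replicates. The sorted cells are populations defined by surface markers, so fewer cells of a type and less RNA per cell cannot be told apart in any value below.

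Resistin-like proteins are short, cysteine-rich secreted factors related to resistin, a hormone of rodent fat tissue. Retnla (also called RELM-alpha or Fizz1) is made by macrophages exposed to the cytokines IL-4 and IL-13 and is one of the usual markers of alternatively activated macrophages, whereas Retnlg (RELM-gamma) is known mainly from bone marrow, neutrophils and other myeloid cells. Chitinase-like proteins keep the fold of enzymes that cut chitin, the sugar polymer of insects and fungi, but have lost the enzyme activity. Chil3 (Ym1) is made by monocytes, neutrophils and alternatively activated macrophages, and Chil1 (BRP-39, the mouse counterpart of human YKL-40) is made by macrophages, neutrophils and epithelial cells.

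Levels are given as CPM (counts scaled to library size, with TMM factors), and levels of different genes are compared only per kilobase of exon (RPKM). Fold changes come from edgeR's quasi-likelihood test over all 23 libraries, with a standard error (SE) and a p-value adjusted by Benjamini-Hochberg over the 16260 genes; a gene rose or fell where the adjusted p was under 0.05. Library totals ran from 9303153 to 32994092 counts, so 3 counts correspond to between 0.091 and 0.32 CPM. Mitochondrial genes took 0.51% to 4.35% of counts. In macrophages the share was 0.75% and 1.25% in controls and 1.86% to 4.35% at day 2. In monocytes it was 0.51% to 0.71% in controls and 1.18% to 2.88% at day 2. TMM factors were 1.24 to 1.41 in control libraries and 0.73 to 1.04 in implant libraries. Comparisons of implant days with controls cross this difference. The labelled cell types differed in their markers: the sum of 9 macrophage markers was 16871 to 20599 CPM in control macrophages and 3008 to 3863 CPM in control monocytes, and the sum of 7 monocyte markers was 3831 to 5782 CPM and 7064 to 9443 CPM. By macrophage markers the monocyte groups from implants, with sums of 5913 to 9185 CPM, lay above control monocytes. They stayed below every macrophage library, the lowest of which had 10344 CPM at day 2. By monocyte markers day 2 monocytes, at 11086 to 11262 CPM, were above control monocytes. The monocyte marker sum was 7572 to 9453 CPM in day 14 and 5094 to 6787 CPM in day 28 monocytes.

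Retnla and Retnlg lie side by side on chromosome 16 and are transcribed in the same direction. Retnla (ENSMUSG00000061100) spans chr16:48842551-48844461 and Retnlg (ENSMUSG00000022651) spans chr16:48872621-48874496, both on the plus strand of GRCm38, with 28159 bases between them. Their longest protein-coding transcripts were 82.0% identical over the aligned columns, yet they shared no stretch of 75 bases, the read length, with each other or with any other annotated gene. The bases upstream of both genes are printed because these neighbours changed in opposite directions in macrophages at day 2. They are RefSeq bases (GRCm38.p6) from 250 bases before the RefSeq start up to the first annotated start, Retnla from chr16:48842359-48842550 and Retnlg from chr16:48872358-48872607, read 5′ to 3′ on the plus strand. Capitals mark matches on either strand to TTC and GAA with any 4 bases between them, a form of the site for STAT6 (the factor activated by IL-4 and IL-13), and to TTGCNNAA, a form of the site for C/EBP factors of myeloid cells.
Retnla: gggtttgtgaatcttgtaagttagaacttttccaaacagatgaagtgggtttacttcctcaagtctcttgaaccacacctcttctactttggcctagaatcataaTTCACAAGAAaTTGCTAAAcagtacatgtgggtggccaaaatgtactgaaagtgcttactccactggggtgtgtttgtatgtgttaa
Retnlg: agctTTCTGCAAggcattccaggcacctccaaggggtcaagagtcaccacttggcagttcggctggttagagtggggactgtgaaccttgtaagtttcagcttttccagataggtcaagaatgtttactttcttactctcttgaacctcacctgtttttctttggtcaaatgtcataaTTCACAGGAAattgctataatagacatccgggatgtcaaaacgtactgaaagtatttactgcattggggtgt

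Both windows held 1 match to the STAT6 letters, at positions -145 to -136 from the RefSeq start in Retnla and -72 to -63 in Retnlg. Retnla also held TTGCTAAA at positions -134 to -127, next to its STAT6 match, and Retnlg held its C/EBP match at -246 to -239, on the minus strand. Retnlg had ttgctata at the same spacing after its own STAT6 match. These bases differ from TTGCTAAA in 1 base and so were not counted as a match. The STAT6 letters occurred in 6.953% and the C/EBP letters in 10.797% of 32851 RefSeq promoter windows of 300 bases. Both kinds with first bases within 20 bases of each other occurred in 26 windows (0.079%); that spacing was chosen after the Retnla window had been seen. The window of Chil1 held neither, and that of Chil3 held neither. A match describes letters and not a bound site.

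Retnla was among the most abundant messages of control macrophages and was lower in every implant group of these cells. Control macrophages had 4731 and 8918 CPM. Day 2 macrophages had 42.9, 38.6 and 223 CPM, day 14 macrophages 519, 314 and 628 CPM, and day 28 macrophages 365, 109 and 397 CPM. Every implant library was below both controls. The 2 lowest were day 2 libraries, and the day 2 and day 28 ranges overlapped. Per length, Retnla ranked 3 among 21620 protein-coding genes in both control libraries, with a mean of 11393 RPKM, against ranks of 186 to 836 at day 2 and 69 to 249 at days 14 and 28.

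In macrophages all 4 members passed the test at day 2 against control, where 17.2% of the 16260 genes did, and Retnla was the member that fell. It fell by 6.08 ± 1.03 on the log2 scale, or 67.5-fold (adjusted p = 0.000438 with edgeR; 3 against 2 libraries). The difference was -3.81 ± 0.94 at day 14 (adjusted p = 0.0139) and -4.56 ± 0.97 at day 28 (adjusted p = 0.00402), and Retnla was the 1 member of 4 called on each of these days, with 8.21% and 10.6% of genes called. The day 14 call was lost without control library B (-3.25, adjusted p = 0.0861) and without day 14 library B (-3.57, adjusted p = 0.0601). Within day 2, library C stood above the others at 223 CPM, and it also had a sum of 8 T, B and NK cell markers of 89.6 CPM against 3.95 and 5.26 CPM in libraries B and A; without it Retnla fell by 7.48 on the log2 scale. The sum of 8 fibroblast markers was 192 to 258 CPM in control and 6.01 to 52.5 CPM in day 2 macrophages. The part of these other cells in the Retnla values was not tested.

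From day 2 to day 14 Retnla was 2.27 ± 0.85 higher in macrophages on the log2 scale, with no overlap between the groups, but the adjusted p was 0.348 where 0.474% of all genes passed. Between days 14 and 28 the ranges overlapped (adjusted p = 0.801), and 0 of the 4 members were called by edgeR or DESeq2 where 0.00615% of genes were (0 had an unadjusted p under 0.05). The control mean remained 14.0-fold above the day 14 level and 23.5-fold above the day 28 level in the fitted values.

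Monocytes held little Retnla in any group. Control monocytes had 0.436, 0.69 and 0.639 CPM, or 73 counts in all. Day 2 monocytes had 5.19, 4.84 and 1.67 CPM, day 14 monocytes 16.3, 13.3 and 0.625 CPM, and day 28 monocytes 1.01, 6.59 and 1.38 CPM. All day 2 and day 28 libraries were above the controls, while 1 day 14 library lay within the control range. Retnla rose at day 2 (2.71 ± 0.94, adjusted p = 0.0377) and at day 14 (4.08 ± 0.97, adjusted p = 0.00264), and the day 28 difference of 2.35 ± 0.93 missed the threshold (adjusted p = 0.0858). The day 2 call was kept in 6 of 14 alternative settings, and in 1 of the 6 that left out a library. The day 14 call was lost with limma voom (3.27, adjusted p = 0.136) and kept in the other 13 settings. The sum of macrophage markers was also higher in these groups, at 5913 to 6887 CPM on day 2 and 7823 to 9120 CPM on day 14 against at most 3863 CPM in controls, and the sum of 8 fibroblast markers was 12.7 to 135 CPM and 612 to 1118 CPM against at most 1.18 CPM in controls. The part of either in the Retnla rise was not tested.

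**Figure D1:**
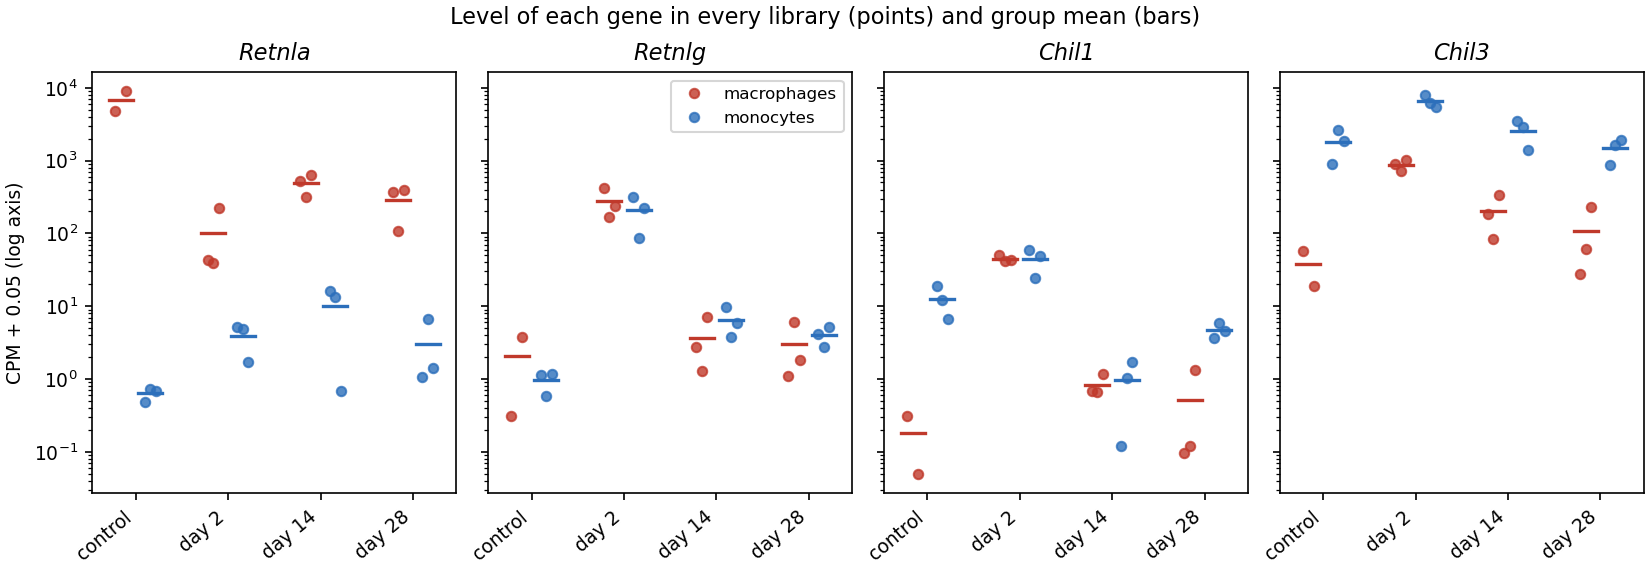
CPM of each member in every library, on a log axis with 0.05 CPM added so that 0 can be drawn; points are libraries, bars are group means, red is macrophages and blue is monocytes. Retnla is highest in control macrophages, at 4731 and 8918 CPM, Retnlg and Chil1 peak on day 2 in both cell types, and Chil3 is higher in monocytes on every day.

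Macrophages had more Retnla than monocytes in all 4 settings. The log2 difference was 13.49 ± 1.37 in controls (adjusted p = 7.34e-07), 4.71 ± 0.96 at day 2 (adjusted p = 0.00768), 5.60 ± 0.99 at day 14 (adjusted p = 0.00225) and 6.59 ± 1.05 at day 28 (adjusted p = 0.00278). The day 2 difference was 3.36 without macrophage library C (adjusted p = 0.0516) and 4.33 without monocyte library C (adjusted p = 0.0531), and the day 28 call was lost when only the 2 groups were fitted (adjusted p = 0.0642). The change from control differed between the cell types on every day, by -8.79 ± 1.38 at day 2, -7.89 ± 1.35 at day 14 and -6.90 ± 1.34 at day 28 (adjusted p = 0.000521, 0.00102 and 0.00272).

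Over the 23 libraries the genes with profiles most like Retnla were Aldh7a1 (Pearson r = 0.947 of log2 CPM), Mgl2 (0.939), Lyve1 (0.938), Fcna (0.919) and Serpinb6a (0.918), out of 7013 candidates with a mean of at least 10 CPM. Mgl2 is a galactose-binding lectin and Lyve1 a hyaluronan receptor of lymphatic vessels and resident tissue macrophages. Lyve1 averaged 556 CPM in control macrophages and 16.3, 62.8 and 20.8 CPM at days 2, 14 and 28, with at most 0.479 CPM in any monocyte group. These correlations describe profiles whose points share the same libraries and cell types.

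The other markers of alternative activation moved in both directions. At day 2 in macrophages 5 of 16 such markers rose and 4 fell, where 17.2% of all genes were called. Their median log2 change was 1.44 against -0.16 over all genes. Arg1, the enzyme that cleaves arginine, rose from a mean of 7.3 to 9226 CPM (10.29 ± 0.92, adjusted p = 3.2e-07). Il1rn, the IL-1 receptor antagonist, rose from 19.0 to 607 CPM (adjusted p = 3.67e-07). The lectins Clec10a and Mgl2 fell by 3.32 ± 0.34 and 4.70 ± 0.51 (adjusted p = 1.61e-06 and 2.78e-06), so the members of the list that fell with Retnla included both of these surface lectins. At day 14, again 5 rose and 4 fell, where 8.21% of all genes were called. Mgl2 was the 1 marker of 16 that rose from day 2 to day 14 (2.24 ± 0.44, adjusted p = 0.0177), where 0.474% of genes were called.

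In monocytes 10 of the 16 markers rose and 0 fell at day 2, and 10 rose and 1 fell at day 14. Over all genes 27% and 37.7% were called on these days. Arg1 rose by 11.42 ± 0.80 at day 2, from a mean of 0.734 to 2024 CPM. Il1rn, the scavenger receptor Msr1 and Cd200r1, an inhibitory receptor, rose by 4.85 ± 0.38, 2.54 ± 0.23 and 3.28 ± 0.31. Control macrophages had 8 of the 16 markers above control monocytes and 1 below, where 12.5% of all genes were called. Clec10a (4.73 ± 0.36) and the mannose receptor Mrc1 (6.81 ± 0.57) were among those above.

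The genes of IL-4 and IL-13 signalling showed no single direction. Of 16 listed, 4 rose and 2 fell in macrophages at day 2, where 17.2% of all genes were called. Their median log2 change was -0.25. Il2rg, the shared cytokine receptor chain, and the transcription factor Klf4 rose by 1.55 ± 0.26 and 2.29 ± 0.42, while the factor Irf4 fell by 3.46 ± 0.53 and the kinase Tyk2 by 2.41 ± 0.58 (adjusted p between 0.000148 and 0.00687). In monocytes 4 rose and 2 fell at day 2, and 4 rose and 5 fell at day 14, where 27% and 37.7% of all genes were called. The same 4 genes had the smallest adjusted p in monocytes at day 2, with Irf4 lower by 3.39 ± 0.50 and Klf4 higher by 1.92 ± 0.36. In the control macrophages, where Retnla was highest, 0 of the 16 were above control monocytes and 2 were below them in edgeR's test. Over all genes 12.5% were called in this comparison, a share near that of the list.

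**Figure D2:**
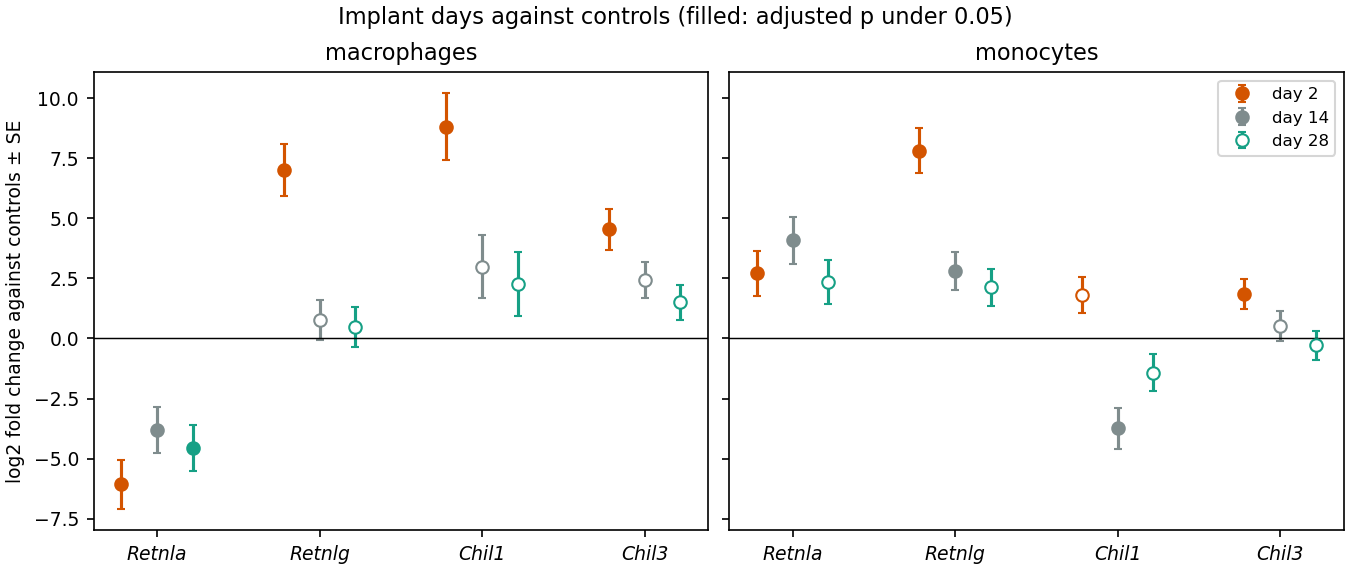
Log2 fold change of each member against the controls of its own cell type, with bars of 1 SE; orange, grey and green are days 2, 14 and 28, and filled points passed an adjusted p of 0.05. Retnla is below 0 on every day in macrophages and above 0 in monocytes, and Retnlg is higher by 7.01 and 7.82 at day 2.

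Retnlg changed in the opposite direction to its neighbour at day 2 in macrophages, and it had a day 2 peak in both cell types. Control macrophages had 0.261 and 3.78 CPM, the values of 4 and 126 counts. Day 2 macrophages had 414, 167 and 241 CPM, day 14 macrophages 2.68, 1.24 and 6.95 CPM, and day 28 macrophages 1.04, 6.07 and 1.79 CPM. The day 2 libraries were above all others, and the day 14 and day 28 ranges overlapped the controls. Retnlg rose at day 2 by 7.01 ± 1.09 (adjusted p = 0.000185) and by day 14 it fell by 6.24 ± 0.88 from its day 2 level (adjusted p = 0.00119). It was 1 of 2 members called from day 2 to day 14, where 0.474% of genes were called.

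The monocyte values followed the same days. Control monocytes had 1.09, 0.531 and 1.11 CPM, day 2 monocytes 317, 85.9 and 220 CPM, day 14 monocytes 9.69, 3.77 and 5.82 CPM, and day 28 monocytes 4.16, 2.73 and 5.16 CPM. Day 2 stood apart, and every later library still lay above the 3 controls. Of the 4 members 3 were called at day 2 and 3 at day 14, where 27% and 37.7% of all genes were, and 0 at day 28, where 18.2% were (edgeR; 2 of the 4 had an unadjusted p under 0.05, and DESeq2 called 2). Retnlg rose by 7.82 ± 0.94 at day 2 (adjusted p = 4.91e-06) and was 2.80 ± 0.78 above control at day 14 (adjusted p = 0.00803; 0.0509 with limma voom, which called 1 of the 4 members) and 2.13 ± 0.77 at day 28 (adjusted p = 0.0584). From day 2 to day 14 it fell by 5.02 ± 0.83 (adjusted p = 0.00737; 0.726% of genes called), a call lost without day 2 library C (adjusted p = 0.0578) and without day 14 library C (adjusted p = 0.0654).

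No comparison between the cell types was called for Retnlg with the low count filter. Without it, the control difference (1.19, adjusted p = 0.0426) and the difference in the day 14 change (-1.93, adjusted p = 0.00799) were. With the filter the sizes were similar, 1.21 (adjusted p = 0.406) and -2.04 (adjusted p = 0.273). Both signs turned, to -1.83 and 1.08, when control macrophage library B was left out. The share of all genes called without the filter was not computed. At day 2 the macrophage minus monocyte difference was 0.40 ± 0.69 (adjusted p = 0.845), and the change from control differed by -0.81 ± 1.08 (adjusted p = 0.843). The day 2 difference plus or minus 2 SE ran from -0.99 to 1.79.

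Chil1 lies on chromosome 1 (ENSMUSG00000064246, chr1:134182176-134190181, plus strand, GRCm38) and shared no 75-base stretch with another gene. It was nearly absent from control macrophages, with 4 counts in 1 library and 0 in the other, a CPM of 0.261 and 0. Day 2 macrophages had 50.5, 41.2 and 43.1 CPM, day 14 macrophages 0.628, 0.621 and 1.12 CPM, and day 28 macrophages 0.0473, 0.0706 and 1.27 CPM, the last 3 from 1, 2 and 37 counts. The day 2 libraries were the 3 high ones, with little spread among them. Chil1 rose by 8.82 ± 1.39 at day 2 (adjusted p = 0.000203), a size that rests on the 4 control counts, and from day 2 to day 14 it fell by 5.83 ± 0.94 (adjusted p = 0.00383). That fall was -6.15 with an adjusted p of 0.0562 without 3 libraries chosen after seeing the data. Day 2 macrophage library B had the highest mitochondrial share (4.35%). Day 14 macrophage library C and control monocyte library B had the lowest trends with exon length (-0.239 and -0.318). Control monocyte library C, with a trend of 0.262, was kept, and so was control macrophage library B, with a trend of -0.231. The trend is the rank correlation of exon length with each gene's deviation from its group mean. With 2 libraries in the control macrophage group, it is equal and opposite in them.

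Unlike the macrophages, control monocytes carried Chil1. Control monocytes had 19, 12.2 and 6.67 CPM, day 2 monocytes 58.8, 24.3 and 49.2 CPM, day 14 monocytes 0.0692, 0.971 and 1.68 CPM, and day 28 monocytes 3.6, 5.9 and 4.52 CPM. The 4 groups did not overlap, in the order day 2, control, day 28, day 14. The day 2 difference of 1.81 ± 0.77 from control did not pass (adjusted p = 0.0859; under 0.05 in 3 of 14 alternative settings). Chil1 fell below control at day 14, by 3.75 ± 0.87 (adjusted p = 0.00219), and from day 2 to day 14 it fell by 5.55 ± 0.93 (adjusted p = 0.0078; 0.0578 without day 2 library C). At day 28 it was 2.32 ± 0.84 above day 14 with an adjusted p of 0.135, where 0.72% of genes and 0 of the 4 members passed with edgeR (1 with an unadjusted p under 0.05); DESeq2 called Chil1 alone (adjusted p = 0.0416).

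Control macrophages were 6.98 ± 1.33 below control monocytes in Chil1 (adjusted p = 0.00102), and 3 of the 4 members differed between the controls where 12.5% of genes did. At day 2 the difference was 0.03 ± 0.75 (adjusted p = 1), and 2 members, Retnla and Chil3, were called where 3.42% of genes were. At day 28 Chil1 was 3.27 ± 0.87 lower in macrophages (adjusted p = 0.0486; 3 members called, 2.52% of genes), a call kept in 7 of 14 alternative settings and in 1 of the 6 that left out a library. The change from control was 7.01 ± 1.49 larger in macrophages than in monocytes at day 2 (adjusted p = 0.00775) and 6.74 ± 1.54 larger at day 14 (adjusted p = 0.0104). Both of these calls, made where 3.78% and 7.55% of genes passed and 2 members each time, were lost without control macrophage library B, the library with 0 counts (adjusted p = 0.0936 and 0.0724). At day 28 Retnla was the 1 member whose change differed (5.77% of genes called).

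Neutrophil markers were high at day 2 in macrophages, as Retnlg and Chil1 were, while in monocytes their day 2 sum overlapped the controls. The sum of 18 such markers was 200 to 215 CPM in control macrophages, 3303 to 6739 CPM at day 2, 177 to 365 CPM at day 14 and 211 to 362 CPM at day 28, and 9 of the 18 rose and 0 fell at day 2. In monocytes the sum was 3588 to 4994 CPM in controls, 2559 to 5445 CPM at day 2, 522 to 1039 CPM at day 14 and 407 to 805 CPM at day 28, and 3 rose while 6 fell at day 2. Over all genes 17.2% were called at day 2 in macrophages and 27% in monocytes. The marker by which neutrophils are sorted, Ly6g, had no count in control macrophages and 20.6, 9.3 and 9.91 CPM at day 2; the chemokine receptor gene Cxcr2 had 51.6, 52.4 and 62.6 CPM there. Genes of immature granulocytes were near 0 in the same day 2 macrophages: Ctsg had no count, and Elane had 8, 1 and 0 counts. The labels give the sort by Cx3cr1 and Ly6C, and the part of other cells in the Retnlg and Chil1 values was not tested.

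Control monocytes had a high marker sum and little Retnlg. Ngp, a granule protein of developing neutrophils, was at 1152, 1394 and 780 CPM in control monocytes and at 3.3, 6.67 and 12.4 CPM in day 2 monocytes, whereas Retnlg was at most 1.11 CPM in the first and at least 85.9 CPM in the second. Chil1 was present in both. Ngp does not stand for the whole list, of which 3 markers rose, 6 fell and 9 were not called in day 2 monocytes. S100a9 and Mmp8, also among the 18, had higher means at day 2 than in control monocytes. These were 1239 against 525 CPM and 403 against 154 CPM. Among the 6 day 2 libraries Retnlg ranked in the same order as the summed markers, from monocyte library B (2559 CPM of markers, 85.9 CPM of Retnlg) to macrophage library A (6739 CPM and 414 CPM); this is an order of 6 values and was not tested.

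**Figure D3:**
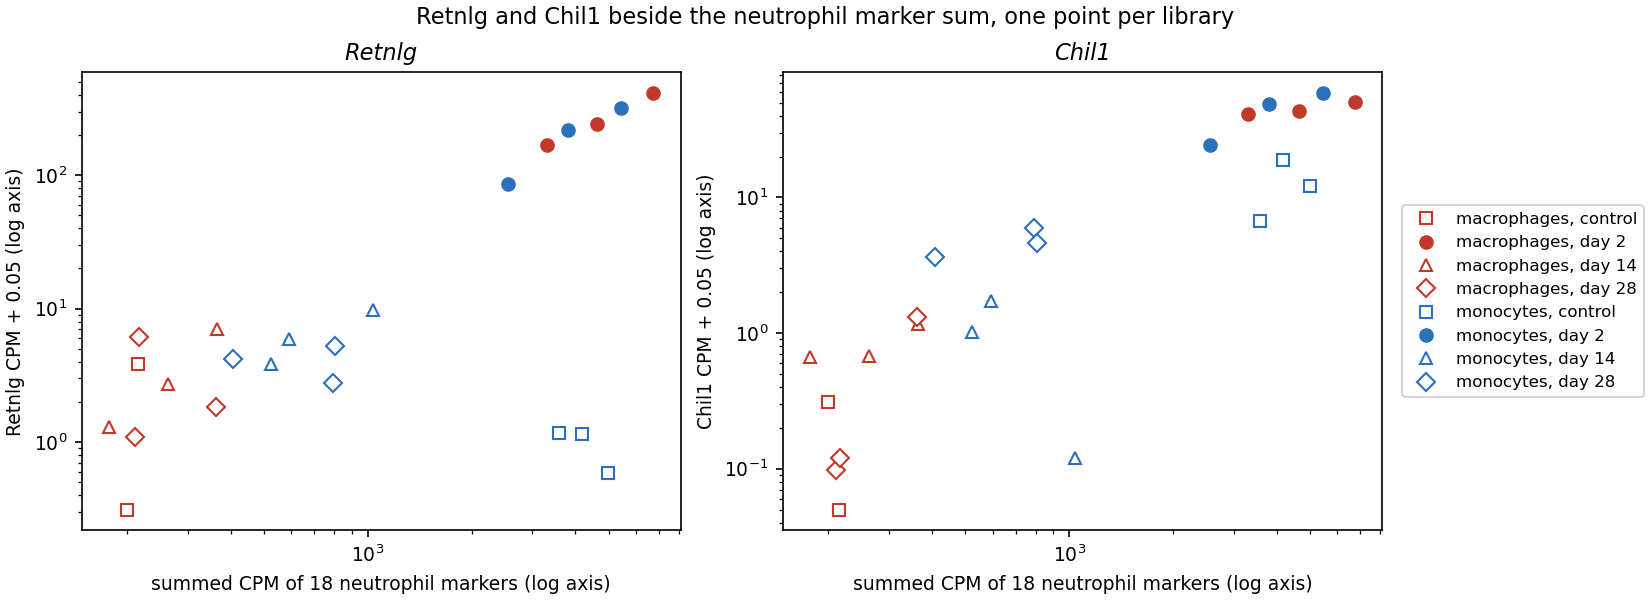
Retnlg (left) and Chil1 (right) CPM with 0.05 added against the summed CPM of 18 neutrophil markers, both on log axes, 1 point per library; filled circles are day 2, open symbols other times, red macrophages and blue monocytes. All day 2 libraries lie at the upper right, while control monocytes have marker sums of 3588 to 4994 CPM with Retnlg at or under 1.11 CPM.

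The genes most like Retnlg over the 23 libraries were G0s2 (r = 0.877), Saa3 (0.872), Pycard (0.851), Asprv1 (0.846) and Mrgpra2b (0.829). G0s2 inhibits the release of fatty acids from stored fat, Saa3 is an acute-phase protein and Pycard the adaptor of inflammasomes. Saa3 averaged 3.67 CPM in control macrophages and 2970 CPM at day 2. Those most like Chil1 were Lcn2 (0.852), S100a9 (0.851), Mrgpra2b (0.826), Samsn1 (0.816) and G0s2 (0.800), so Mrgpra2b and G0s2 stood on both lists. Lcn2, a protein that binds bacterial iron carriers, and S100a9, a subunit of calprotectin, are also among the 18 neutrophil markers. S100a9 averaged 1.32 and 1949 CPM in control and day 2 macrophages and 525 and 1239 CPM in control and day 2 monocytes.

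Of the 9 tested transcription factors of the C/EBP and granulocyte-monocyte list, 2 rose and 0 fell in macrophages at day 2, where 17.2% of all genes were called. Cebpb rose by 3.12 ± 0.59 (adjusted p = 0.00103) and Cebpe, a factor of late neutrophil maturation, by 3.11 ± 0.83 (adjusted p = 0.0139). In monocytes at day 2, 1 rose and 4 fell, where 27% of all genes were called. Cebpb rose by 2.09 ± 0.47 there, while Cebpa and Irf8 fell by 1.95 ± 0.50 and 2.04 ± 0.53 and Cebpd by 4.23 ± 1.26.

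Per length Chil3 was the most abundant member in every monocyte group, and it rose at day 2 in both cell types. It lies on the minus strand of chromosome 3 (ENSMUSG00000040809, chr3:106147554-106167564, GRCm38). Control monocytes had 904, 2659 and 1831 CPM, day 2 monocytes 7840, 6240 and 5406 CPM, day 14 monocytes 3451, 2851 and 1402 CPM, and day 28 monocytes 878, 1621 and 1928 CPM. The day 2 libraries were above all others, and the other 3 groups overlapped one another. Per length, Chil3 ranked between 11 and 15 of 21620 protein-coding genes at day 2, with a mean of 3980 RPKM.

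The rise in monocytes was 1.85 ± 0.63 on the log2 scale, or 3.61-fold (adjusted p = 0.0345). This call was kept in 2 of the 6 fits that left out 1 library: it was lost without control library A (1.49, adjusted p = 0.144), control library C (1.82, 0.0956), day 2 library A (1.70, 0.0915) and day 2 library B (1.88, 0.0648). Chil3 at days 14 and 28 differed from control by 0.51 ± 0.61 and -0.28 ± 0.61 (adjusted p = 0.534 and 0.798).

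Macrophages had less Chil3, and it rose in them at day 2. Control macrophages had 56.4 and 18.7 CPM, day 2 macrophages 907, 708 and 1015 CPM, day 14 macrophages 183, 83.3 and 342 CPM, and day 28 macrophages 27.5, 61.2 and 232 CPM. Day 2 and day 14 lay above the controls and day 28 overlapped them. Chil3 rose by 4.55 ± 0.85 at day 2, or 23.4-fold (adjusted p = 0.000949), and the day 14 difference of 2.44 ± 0.76 just missed the threshold (adjusted p = 0.0512; under it in 4 of 13 alternative settings). The change at day 2 was 2.69 ± 0.95 larger in macrophages than in monocytes, with an adjusted p of 0.144. It was called in 4 of 19 alternative settings (DESeq2, limma voom, no low count filter and only the groups compared) and in 0 of the 11 that left out a library.

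Monocytes were above macrophages in Chil3 in controls and on all 3 days. The macrophage minus monocyte difference was -5.58 ± 0.90 in controls (adjusted p = 0.000182), -2.89 ± 0.66 at day 2 (adjusted p = 0.0153), -3.66 ± 0.68 at day 14 (adjusted p = 0.00319) and -3.79 ± 0.68 at day 28 (adjusted p = 0.00648). At day 14, 2 members were called (Retnla and Chil3; 9.37% of genes). The day 2 call was lost without any 1 of the 3 macrophage libraries (adjusted p between 0.0524 and 0.0858), and the day 28 call when only the 2 groups were fitted (0.127).

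Counts of Chil3 and of its neighbour Chil4 (Ym2) could not be taken as separate measurements. Chil4 had between 2.41% and 3.58% of the Chil3 count in all 23 libraries, with a median of 3.27%, and over libraries its profile was the one most like Chil3 (r = 0.998). The longest protein-coding transcripts of the genes were 94.3% identical, and 208 of the 1606 distinct 75-base stretches of Chil3 occurred in another gene, 125 of them in Chil4 and 86 in the predicted gene Gm6522. The labels do not say how reads that match several genes were counted. The upstream bases of both genes are printed to show how alike they are: RefSeq bases of GRCm38.p6 on the minus strand, Chil3 from chr3:106167565-106167814 and Chil4 from chr3:106219508-106219729, with capitals for the C/EBP letters TTGCNNAA on either strand.
Chil3: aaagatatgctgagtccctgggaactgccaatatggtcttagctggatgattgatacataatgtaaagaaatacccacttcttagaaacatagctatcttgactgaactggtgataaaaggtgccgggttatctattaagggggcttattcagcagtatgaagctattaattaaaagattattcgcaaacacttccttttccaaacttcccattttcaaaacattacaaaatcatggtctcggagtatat
Chil4: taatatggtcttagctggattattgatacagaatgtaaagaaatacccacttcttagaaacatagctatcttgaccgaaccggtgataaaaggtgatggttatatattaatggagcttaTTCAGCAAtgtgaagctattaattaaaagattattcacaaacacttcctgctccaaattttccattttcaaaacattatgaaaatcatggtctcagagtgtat

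Chil4 was called wherever Chil3 was and also in day 14 macrophages (2.82 ± 0.80, adjusted p = 0.0313), and these calls carry the same uncertainty. After Chil4, the genes most like Chil3 were Mmp8 (r = 0.943), a neutrophil collagenase, Jaml (0.939), an adhesion molecule of leukocytes, Sirpb1b (0.932) and Cd244a (0.931). Mmp8 averaged 154 CPM in control monocytes and 403 CPM at day 2.

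**Figure D4:**
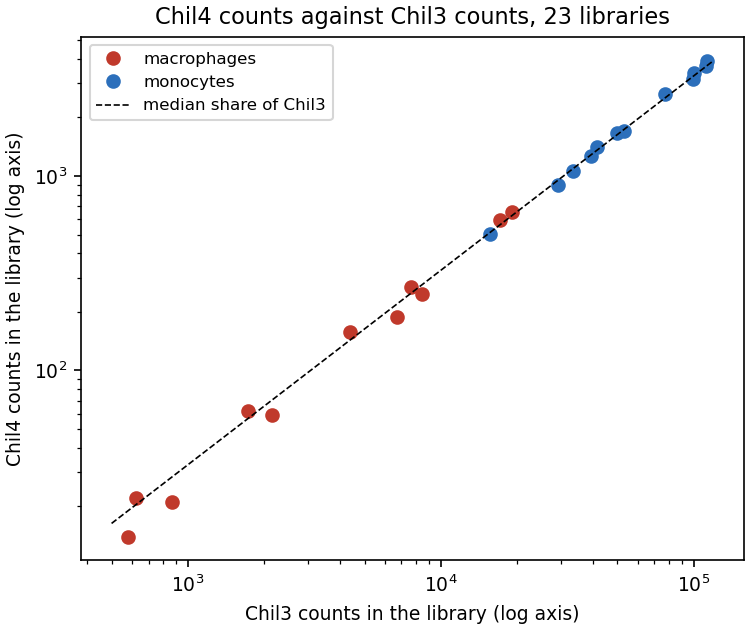
Chil4 counts against Chil3 counts in the 23 libraries, both on log axes, with macrophages in red and monocytes in blue; the dashed line is the median share of 3.27%. All libraries lie along it, between 2.41% and 3.58%.

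The rest of both families was mostly silent. Of the 10 other listed members, 7 stayed under 5 CPM in every library, and Chia1, the acidic mammalian chitinase, had no count in any. Retn, resistin itself, reached at most 2.75 CPM and rose in monocytes at day 2 (4.43 ± 1.63, adjusted p = 0.0494). Chid1, a widely expressed protein with a chitinase-like domain, and Ctbs, the lysosomal enzyme chitobiase, were present in every library, and in monocytes at day 2 they rose by 1.12 ± 0.21 (adjusted p = 0.000621) and 0.97 ± 0.31 (adjusted p = 0.0237).

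Genes for proposed partners of these proteins were measured in the same cells. Of 6 tested among 8 listed, 2 rose and 0 fell in macrophages at day 2, where 17.2% of all genes were called. Cd44, a hyaluronan receptor, rose by 3.23 ± 0.36 (adjusted p = 4.62e-06), and Lgals3, or galectin-3, by 3.15 ± 0.45 (adjusted p = 6.62e-05). In monocytes at day 2, 3 rose and 1 fell, where 27% of all genes were called. Cd44, Lgals3 and Tlr4 rose by 1.30 ± 0.29, 1.57 ± 0.36 and 2.11 ± 0.47, and Cap1, proposed as a resistin receptor, fell by 1.43 ± 0.47. Control monocytes had 392.4, 67.4 and 94.2 CPM of Cap1 and day 2 monocytes 75.04, 59.4 and 70.5 CPM, so the groups overlapped and 1 control library stood far above the rest.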

How the data were processed

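RNA from sorted cells was amplified with SMART-Seq v4, made into Nextera XT libraries and read as single 75-base reads, per the labels' protocols. The values are whole-number counts per gene deposited by the authors; STAR 2.4.1d, featureCounts of Subread 1.5.1 and GRCm38 are named in the submitters' processing notes. The labels do not state the strand setting or how reads matching several genes were treated. Symbols, exon lengths and transcripts came from GENCODE M21, promoter windows from RefSeq GRCm38.p6.

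Counts were tested with edgeR 4.0.16 (TMM, filterByExpr, robust quasi-likelihood fit of 8 groups, prior count 0.125, R 4.3.3) in 17 comparisons, with Benjamini-Hochberg adjustment over 16260 genes. The test was checked on simulated counts, where recovery was lower for small folds and for genes under 10 CPM, so a missed call there shows little. A first criterion for recovery of large changes over all genes was not met. The criterion was then narrowed to genes of at least 10 CPM, with the test itself unchanged. Alternatives used limma 3.58.1, DESeq2 1.42.0, other scaling, no filter, a prior count of 2, only the groups compared, a replicate block, and each library left out. Leaving out 3 libraries together was chosen after seeing the data. Transcripts were aligned with Biopython 1.88.

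The members and gene lists were chosen with earlier results of these data known. The text names the 4 members, up to 4 genes per list with the smallest adjusted p, and the 5 genes with the highest Pearson r (log2 CPM, prior count 2); other markers named were chosen after their values were seen. Marker sums of dendritic cells (15.0 to 495 CPM), eosinophils (at most 13.2 CPM), adipocytes (47.3 to 125 CPM) and fibroblasts (0.133 to 1118 CPM) were also computed.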

Additional observations from a re-analysis of the deposited data

Results flagged for a closer look

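The change from control differed between macrophages and monocytes for Retnla and Chil1, by a test of the difference itself (edgeR interaction, Benjamini-Hochberg over 16260 genes). For Retnla the macrophage change minus the monocyte change was -8.79 ± 1.38 at day 2, -7.89 ± 1.35 at day 14 and -6.90 ± 1.34 at day 28 on the log2 scale, and it was called in all 19 alternative settings on each day. Retnla was lower than control in 9 of 9 implant macrophage libraries. For Chil1 the difference was 7.01 ± 1.49 at day 2 and 6.74 ± 1.54 at day 14, called in 18 of 19 settings each and lost without control macrophage library B, which had 0 Chil1 counts. Groups of 2 or 3 libraries are too small for a search for single outlying libraries.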

How the results depend on the processing

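Of the 68 values (4 members in 17 comparisons), RLE size factors and a prior count of 2 kept all 68 on their side of the threshold and in direction, DESeq2 62, fitting only the groups compared 63, leaving out 3 libraries together 61, limma voom 56 and no low count filter 48, where the other 20 all became called. With the replicate block 67 were kept; Retnla in day 2 monocytes went to 2.72 (adjusted p = 0.0513). Taken over all groups, same-lettered libraries did not deviate together (77 pairs, r from -0.228 to 0.237), and 2 of 23 libraries correlated best with their own letter. These pairs pool all days and both cell types. Macrophage and monocyte libraries of the same day and letter were not examined alone, so pairing within a day was not tested. The causes of the changes below were not tested. The share of all genes called was computed only for the edgeR fit as reported, not for any alternative setting. Counts of members called in the alternatives, here and above, therefore have no such share beside them. They show how the calls depend on the setting and nothing particular to the members.

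Members called without the filter were 3 in day 14 and 3 in day 28 macrophages and 3 in day 28 monocytes against control, 4 from day 2 to day 14 in both cell types, 2 from day 14 to day 28 in monocytes, and 4 and 3 for the cell type difference in the day 14 and day 28 changes. Fold sizes of these calls changed little while adjusted p fell far. Chil3 in day 14 macrophages was at 2.44 either way, with an edgeR adjusted p of 0.0512 with the filter and 2.05e-09 without it. DESeq2 called 2 in day 14 macrophages, 2 in day 28 monocytes and 1 from day 14 to day 28 in monocytes. limma voom called 2 in day 14 macrophages, 4 from day 2 to day 14 in macrophages and 1 in day 14 monocytes. Without the 3 libraries, 1 was called from day 2 to day 14 in macrophages and 1 between cell types at day 2. With only the groups compared, 0 were called between cell types at day 28.

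Leaving out each library in turn gave 0 to 1 members called in day 14 macrophages, 1 to 3 in day 2 monocytes, 0 to 2 from day 2 to day 14 in monocytes, 0 to 2 between cell types at day 2, and 1 to 2 for the cell type difference in the day 2 and in the day 14 change. The lowest counts came without control macrophage library B for day 14 macrophages and both differences in change, without day 2 macrophage library C between cell types at day 2, and without day 2 monocyte library C from day 2 to day 14; in day 2 monocytes any of control A, control C, day 2 A and day 2 B gave 1.

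Signs that turned belonged to uncalled values. For Retnlg, leaving out a library gave -0.15 to 3.77 in day 14 and -0.57 to 3.55 in day 28 macrophages against control, -1.34 to 0.60 from day 14 to day 28 in macrophages, -1.83 to 2.05 between control cell types, -0.044 to 0.84 between cell types at day 2, and -1.66 to 2.21, -2.86 to 1.08 and -2.70 to 1.41 for the cell type difference in change at days 2, 14 and 28. Without the 3 libraries Retnlg was -0.14 in day 14 macrophages and 0.60 from day 14 to day 28; limma voom gave 0.63 there and 0.73 for the difference in the day 2 change. For Chil1 the ranges were -0.62 to 6.57 in day 28 macrophages, -0.26 to 0.29 between cell types at day 2 and -0.71 to 0.58 at day 14, where limma voom gave 0.84. Chil3 in day 28 monocytes ranged from -0.58 to 0.10, with 0.021 by limma voom and 0.024 without the 3 libraries. Control macrophages had 2 libraries, and Chil1 and Retnlg in them rest on few counts, so fold sizes against this group are the least precise.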
